A study of Mus musculus with 4 samples.

Results

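Genes for G protein-coupled receptors and for the cyclic AMP (cAMP) pathway were examined in meningeal lymphatic endothelial cells of aged mice, isolated by flow sorting. The members were taken by gene name: receptor families (Adgr, S1pr, Lpar, Ptger, Ednr, F2r, Htr, P2ry, Gpr and others), G protein subunits, Rgs proteins, receptor kinases and arrestins, adenylyl cyclases, protein kinase A subunits and anchors, phosphodiesterases, Rap exchange factors and phospholipase C beta. This rule found 142 of the 9114 genes in the table, of which 64 bear receptor names and 74 encode intracellular components. The other 4 (Htra1, Htra2, Agtrap and Pde4dip) were matched by name and encode no receptor, G protein subunit or enzyme of these families. Htr3b, a subunit of a serotonin-gated ion channel, and Pde12, a mitochondrial RNA-degrading enzyme, are also no GPCR or cAMP genes. All libraries came from male C57BL/6J mice aged 20 to 24 months that had received 5 µL of an AAV1 vector into the cisterna magna 4 weeks earlier. The vector carried mouse VEGF-C, a lymphatic growth factor, in the mVEGF-C group and the fluorescent protein eGFP in the control group, both under the CMV promoter, which is not specific to a cell type. Each group had 2 libraries, each from DAPI-negative, CD45-negative, CD31-positive and podoplanin-positive single cells of 10 pooled mice.

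G protein-coupled receptors span the membrane and, once a ligand binds, load the alpha subunit of a trimeric G protein with GTP. Gs raises and Gi lowers the activity of adenylyl cyclase, which makes cAMP, whereas Gq acts through phospholipase C beta. cAMP is read by protein kinase A (PKA) and by the EPAC exchange factors for the small GTPase Rap, which tighten endothelial junctions, and is broken down by phosphodiesterases. In lymphatic endothelium the adrenomedullin receptor, formed by Calcrl with Ramp2, is known from mouse knockouts to be needed for normal lymphatic vessels, and S1pr1 for their junctional integrity.

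The libraries held 25610683 to 28632461 reads on the genes of the table, of which the 142 members took 1.06% to 1.30%. All 142 members had reads in every library. The 15 lymphatic markers were present in every library, as were 11 of 12 pan-endothelial markers. Of other cell types, 6 of 10 fibroblast, 5 of 10 mural, 2 of 12 macrophage, 4 of 10 lymphocyte, 6 of 12 neural and 2 of 5 choroid plexus and ependymal markers had a row, and the leukocyte marker Ptprc was not among them. A missing row does not show that a gene was silent, since the rows were selected, as described below. Levels of those with a row varied. Of the genes listed as macrophage markers, Mrc1 had 23299 to 32880 normalised counts and Cx3cr1 196 to 426. The fibroblast marker Dcn had 9307 to 24366.5. Among the tested lymphocyte markers, Cd3d had 318 to 850, Cd4 39.5 to 142 and Cd3g 4.27 to 23.3. Which cells these counts came from was not tested. The delivered gene Vegfc is not analysed here, so it gives no check of the labels. No gene in the table had replicates further apart than 2.83 in the eGFP pair and 4.24 in the mVEGF-C pair on the log2(reads + 1) scale, sharp limits that mark a selection for replicate agreement. The spread between replicates is therefore understated and the p-values below are too small by an unknown amount.

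Across the members, VEGF-C delivery was followed by 3 called changes, all of them decreases: Prkaca, a catalytic subunit of PKA, Gng7, a G protein gamma subunit, and Pde1a, a phosphodiesterase activated by calcium and calmodulin. Called means an adjusted p under 0.05 in limma, fitted to log2(normalised count + 1) over all 9063 genes whose mean reached 10, with Benjamini-Hochberg adjustment over them. The 3 members were 2.13% of the 141 tested, against 2.14% called among all genes tested, so the members as a group were called as often as the background. The background was 0.828% for genes called higher and 1.31% for genes called lower. No member was called higher by limma or edgeR, 3 were by DESeq2, and 5 had an unadjusted limma p under 0.05. Lower members numbered 2 in edgeR, 6 in DESeq2 and 13 at an unadjusted p. In all genes the share called was 1.61% in edgeR (0.739% higher, 0.872% lower) and 6.63% in DESeq2 (3.12% higher, 3.51% lower), and 11.8% had an unadjusted limma p under 0.05. Fold changes were above 0 for 64 of 141 members, 45.4%, against 49.5% of all genes. The median log2 fold change, mVEGF-C minus eGFP, was -0.07 over the members and -0.02 over all genes tested. The 2 groups did not overlap for 23 members in the higher and 34 in the lower direction, 40.4% of the members against 39.2% of all genes (19.4% higher, 19.8% lower). Within groups, the median log2 difference between replicates was 0.96 in the eGFP pair and 1.07 in the mVEGF-C pair for the members, against 0.94 and 1.07 for all genes. Gpr135, an orphan receptor, was the 1 member below the limit for testing. In bulk libraries, fewer cells that express a gene and less of its RNA per cell cannot be told apart.

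**Figure D1:**
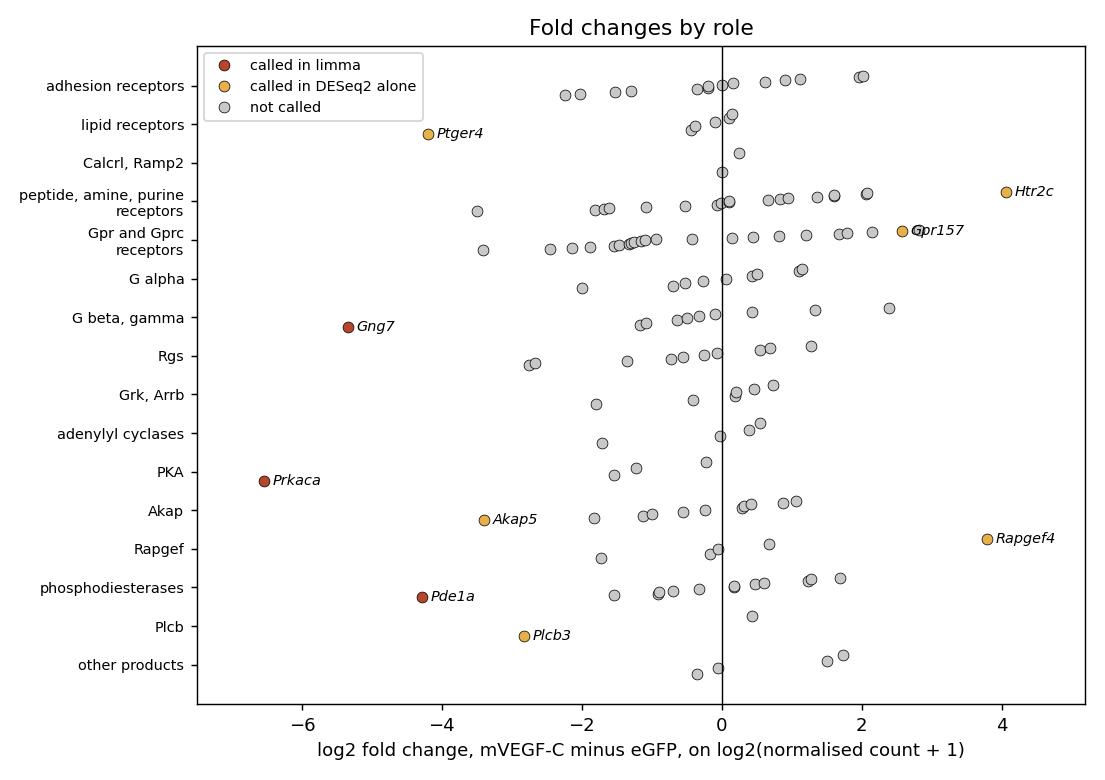
Log2 fold change of each of the 141 tested members, mVEGF-C minus eGFP, on the log2(normalised count + 1) scale, arranged by role, with 1 point per gene. Red points are called in limma, yellow points in DESeq2 alone and grey points in neither, and the 3 red points (Prkaca, Gng7 and Pde1a) all lie below 0.

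PKA is a tetramer of regulatory and catalytic subunits that cAMP takes apart to release the active catalytic subunits. Of its 4 genes with a row, all had fold changes below 0 and 1 was called. Prkaca (chromosome 8, 83972993 to 83996443, GRCm38, plus strand) had 551 normalised counts in eGFP 1, 1597 in eGFP 2, 2.14 in mVEGF-C 1 and 31.6 in mVEGF-C 2. The 2 mVEGF-C values rest on 2 and 34 reads. Both mVEGF-C libraries lay far below both eGFP libraries, at group means of 16.9 ± 20.8 and 1074 ± 740 (SD, n = 2 each). Prkaca fell by 6.54 on the log2 scale (SE 1.29, limma adjusted p = 0.000181), and was also called by edgeR (adjusted p = 0.00958) and DESeq2 (7.49e-06). The call was lost without eGFP 2 (limma, adjusted p = 0.402) and with a variance not tied to expression (0.0541), within a range of 4.24e-06 to 0.402 over all alternatives. With single libraries left out the log2 fold change ran from -8.23 to -4.85.

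Prkacb, the other widely expressed catalytic subunit, had 1263 and 5440 normalised counts in the eGFP libraries against 852 and 1476 under mVEGF-C. Its groups overlapped, and its log2 fold change of -1.22 (SE 0.96) was not called (limma, adjusted p = 0.722). Per kb of exon, Prkaca made up 60.6% and 50.9% of the catalytic transcripts in the eGFP libraries against 0.876% and 7.01% under mVEGF-C. The sum of both catalytic genes per kb was 365 and 1262 in eGFP against 98.0 and 181 in mVEGF-C libraries. The catalytic make-up of the mVEGF-C libraries was thus almost wholly Prkacb, whereas both genes had comparable levels per kb in each eGFP library. Of the regulatory subunits, Prkar1a (type I) had 5516, 6974, 5134 and 5503 normalised counts in eGFP 1, eGFP 2, mVEGF-C 1 and mVEGF-C 2, close together in all libraries, with both mVEGF-C values below both eGFP values by a small margin. Its log2 fold change was -0.22 (95% interval -1.54 to 1.10, limma adjusted p = 0.965). Prkar2a (type II) had 3606 and 3733 against 1501 and 1051, without overlap and not called (log2 fold change -1.55, SE 0.91, limma adjusted p = 0.55).

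Catalytic subunits of PKA enter the nucleus and phosphorylate CREB, which binds the cAMP response element. The promoters of the 3 called genes are printed with that of Rapgef4, the cAMP sensor with the largest positive fold change, and that of Prkar1a, the 1 member whose promoter held the full element. The sequences run from 250 bases before to 50 after an annotated start (RefSeq, GRCm38.p6), 5′ to 3′ on the strand of the gene. Capitals mark the full element TGACGTCA and its core TGACG, searched on both strands (CGTCA is the core on the other strand, and the full element holds the core on both). Prkaca lies at chr8:83972728-83973027, plus strand, Prkar1a at chr11:109650612-109650911, plus strand, Rapgef4 at chr2:71980965-71981264, plus strand, Gng7 at chr10:81014876-81015175, minus strand and Pde1a at chr2:80129363-80129662, minus strand.
Prkaca: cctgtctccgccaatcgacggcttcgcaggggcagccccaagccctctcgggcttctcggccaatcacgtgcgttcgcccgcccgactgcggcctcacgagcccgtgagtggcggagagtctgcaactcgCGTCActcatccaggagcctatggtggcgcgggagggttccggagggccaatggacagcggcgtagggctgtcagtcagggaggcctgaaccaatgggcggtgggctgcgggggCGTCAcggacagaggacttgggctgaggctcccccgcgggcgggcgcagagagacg
Prkar1a: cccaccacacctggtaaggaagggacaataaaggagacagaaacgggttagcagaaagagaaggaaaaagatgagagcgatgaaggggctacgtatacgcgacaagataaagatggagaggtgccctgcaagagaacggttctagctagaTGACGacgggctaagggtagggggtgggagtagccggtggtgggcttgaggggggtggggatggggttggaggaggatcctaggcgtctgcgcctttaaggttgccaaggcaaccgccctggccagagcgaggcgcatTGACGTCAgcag
Rapgef4: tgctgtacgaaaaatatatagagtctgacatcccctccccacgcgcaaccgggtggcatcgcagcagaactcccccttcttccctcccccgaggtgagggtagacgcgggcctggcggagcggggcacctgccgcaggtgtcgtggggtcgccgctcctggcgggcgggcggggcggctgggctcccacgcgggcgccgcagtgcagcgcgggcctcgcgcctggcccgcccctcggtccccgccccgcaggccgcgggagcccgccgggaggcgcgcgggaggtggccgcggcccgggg
Gng7: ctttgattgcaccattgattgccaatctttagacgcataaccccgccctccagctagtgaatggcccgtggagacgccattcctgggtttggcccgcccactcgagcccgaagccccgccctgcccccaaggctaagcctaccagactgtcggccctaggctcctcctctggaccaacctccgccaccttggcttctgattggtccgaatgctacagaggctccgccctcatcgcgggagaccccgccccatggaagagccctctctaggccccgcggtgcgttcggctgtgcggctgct
Pde1a: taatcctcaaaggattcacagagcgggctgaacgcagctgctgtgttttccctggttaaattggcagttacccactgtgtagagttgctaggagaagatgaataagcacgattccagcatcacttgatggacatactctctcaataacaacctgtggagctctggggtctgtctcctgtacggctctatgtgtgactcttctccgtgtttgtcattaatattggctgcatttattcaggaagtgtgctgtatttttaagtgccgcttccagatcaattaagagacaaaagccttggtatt
The Prkaca promoter held the core in 2 places, beginning 120 and 6 bases before the start. The Prkar1a promoter held the full element from position 39 of the transcript and a further core 100 bases before the start. In the window of another annotated Prkar1a start, further downstream, the full element lay before the start. The windows printed for the other 3 genes held neither, and another annotated start of Gng7 and of Pde1a had 1 core each. Of 32544 distinct promoter sequences of this length, 1.80% held the full element and 20.9% the core. RefSeq promoters were matched to 108 of the 142 members, and counting every annotated start of a gene, 34 of the 108 held a core (31.5%, against 23.0% of all genes with a promoter). The GC box GGGCGG, searched on both strands, was in 5 places each in Gng7 and Rapgef4, 3 in Prkaca, 1 in Prkar1a and 0 in Pde1a, and in 35.9% of all promoter sequences. Counted by gene, the GC box was in 61.1% of the 108 members against 38.2% of all genes with a promoter. The full element was in 0.926% against 2.03%. The 27025 genes with a promoter were not limited to those in the table. A gene with more annotated starts had more windows, and the number of starts was not evened out between members and all genes. These matches describe letters in a window and were not tested against the expression values.

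The EPAC sensors read cAMP without PKA. Rapgef4 (EPAC2, chromosome 2, 71981240 to 72257474, plus strand) had 75.2 and 52.4 normalised counts in the eGFP and 685 and 1144 in the mVEGF-C libraries. Every mVEGF-C value was well above every eGFP value. The log2 fold change was 3.80 (SE 1.24), not called by limma (adjusted p = 0.0777) or edgeR (0.112) and called by DESeq2 (0.000266), in a range of 0.000266 to 0.957 over the alternatives. Rapgef3 (EPAC1), the form best known from endothelium, had 100.3, 80.2, 63.0 and 327 normalised counts in eGFP 1, eGFP 2, mVEGF-C 1 and mVEGF-C 2. One mVEGF-C library was below and the other above both eGFP libraries, and the log2 fold change of 0.68 (SE 1.29) was not called (limma, adjusted p = 0.927). Rapgef4 made up 41.6% and 38.3% of the EPAC transcripts per kb in the eGFP libraries against 91.2% and 76.8% under mVEGF-C. Both genes overlap annotated antisense transcripts, and since the strand setting of the counting is not given, reads of the pairs cannot be told apart. Of the 12 neural markers 6 had a row, with sums of 1950 and 1293 in eGFP and 2673 and 1417 in mVEGF-C libraries. Among them Syt1 had 8.95 and 11.8 against 110.0 and 207, and the part of neural cells in the Rapgef4 values was not tested. The Rap exchange factors that do not bind cAMP in the same way were not called. Rapgef1 had 3147, 6806, 2682 and 6371 normalised counts, so the replicates differed more than the groups, with a log2 fold change of -0.16. Rapgef2 stood at -0.05 and Rapgef6 at -1.72 (limma, adjusted p = 0.996 and 0.426).

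**Figure D2:**
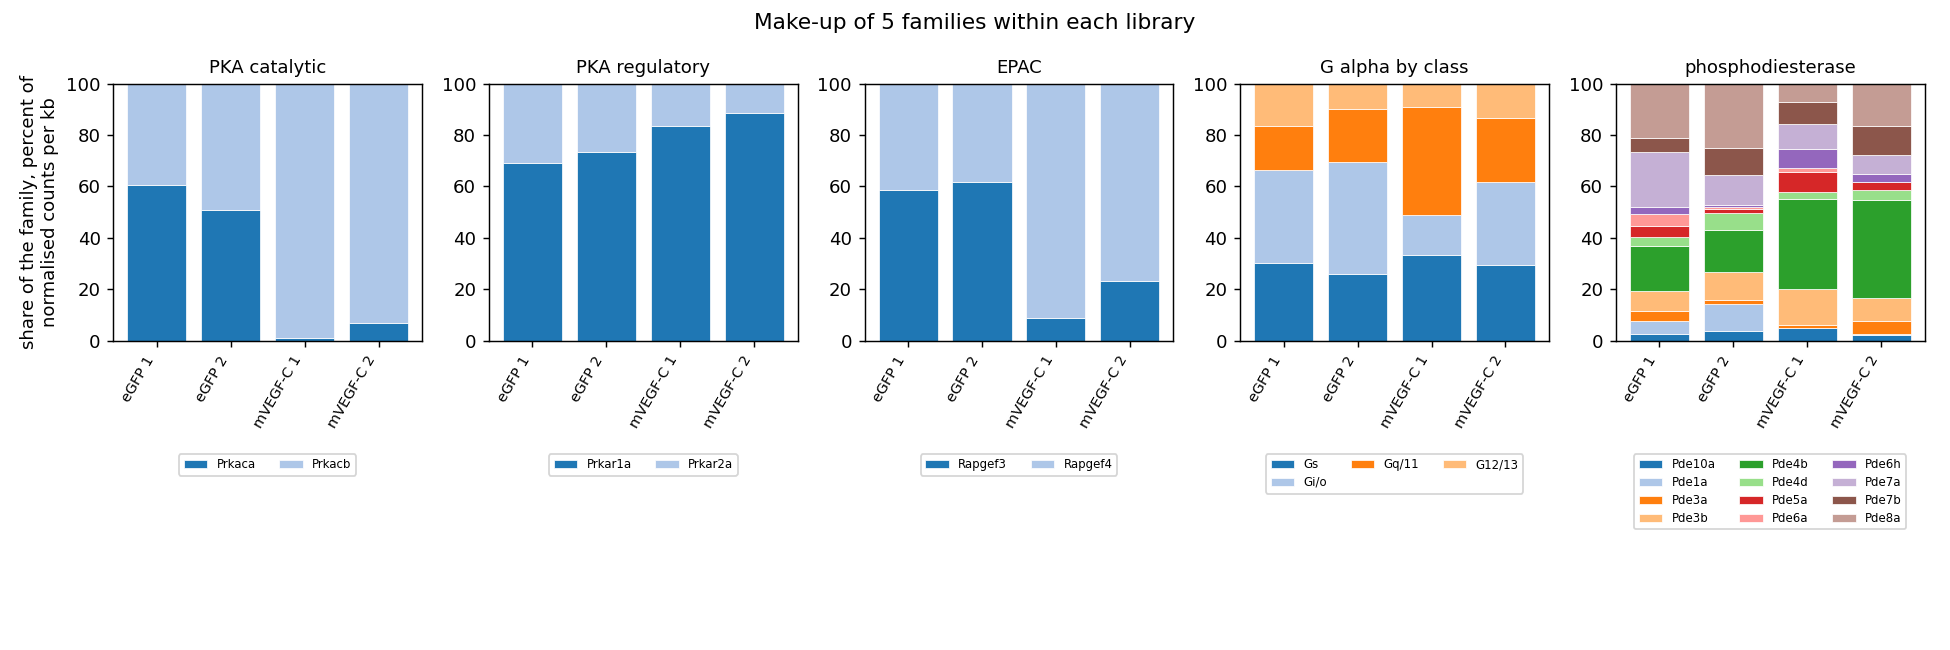
Share of each gene or class within 5 families in every library, as percent of the family's summed normalised counts per kb of exon, from 0 to 100. The Prkaca share of the catalytic PKA transcripts is 50.9% or more in the eGFP libraries and 7.01% or less in the mVEGF-C libraries, and the Rapgef4 share of the EPAC transcripts is 38.3% to 41.6% against 76.8% to 91.2%.

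Phosphodiesterases end the cAMP and cGMP signals, and 1 of the 13 genes with this name was called lower. Pde1a (chromosome 2, 79834453 to 80129458, minus strand) had 681 and 1718 normalised counts in the eGFP and 49.1 and 60.4 in the mVEGF-C libraries. The mVEGF-C replicates were close together and far below the eGFP replicates. Pde1a fell by 4.29 on the log2 scale (SE 1.24, limma adjusted p = 0.0327), was called by DESeq2 (2.92e-05) and was not by edgeR (0.0564). The call was also lost without eGFP 1 (0.236), eGFP 2 (0.999) or mVEGF-C 1 (0.0802) and without the variance trend (0.0813), in a range of 2.92e-05 to 0.999 over the alternatives.

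Pde4b, a cAMP-specific enzyme that cAMP signalling itself is known to induce, had the tightest replicates of the family. It had 4202 and 4683 normalised counts in the eGFP and 11050 and 10540 in the mVEGF-C libraries, a separation wider than the spread in either group. The log2 fold change was 1.28 (SE 0.63, 95% interval 0.05 to 2.52), and it was not called (limma, adjusted p = 0.387). Pde4b took 17.8% and 16.4% of the cyclic nucleotide phosphodiesterase transcripts per kb in the eGFP libraries against 34.8% and 38.2% under mVEGF-C, while the Pde1a share was 5.05% and 10.5% against 0.272% and 0.385%. The other 11 ran from -1.54 (Pde6a, a catalytic subunit of the rod cGMP enzyme) to 1.69 (Pde6h, an inhibitory subunit of the cone enzyme). Among them Pde8a and Pde7a, which are specific for cAMP, were lower in both mVEGF-C than in both eGFP libraries (-0.91 and -0.69, limma adjusted p = 0.831 and 0.874). Pde3a, Pde3b, Pde4d, Pde5a, Pde7b, Pde10a and Pde12 overlapped between groups, at 0.18, 0.48, -0.33, 1.24, 0.60, 0.18 and -0.90.

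The anchoring proteins of the Akap family hold PKA beside its targets. None of the 11 was called by limma or edgeR, 1 was called lower by DESeq2, and 1 had an unadjusted limma p under 0.05. Akap5 (chromosome 12, 76324891 to 76334153, plus strand), which binds PKA and calcineurin at the membrane, had 979 and 788 normalised counts in the eGFP and 124 and 54.8 in the mVEGF-C libraries. The groups were clearly apart and the log2 fold change was -3.40 (SE 1.23), not called by limma (adjusted p = 0.139) or edgeR (0.194) and called by DESeq2 (0.00364), in a range of 0.00364 to 0.999 over the alternatives. Akap12, a scaffold known in endothelium for its part in barrier function, had 9682 and 9826 normalised counts in the eGFP and 4422 and 5390 in the mVEGF-C libraries. Its replicates lay close together and its groups apart, with a log2 fold change of -0.998 and an SE of 0.63 (limma, adjusted p = 0.596). Akap1, the mitochondrial anchor, and the nuclear Akap8 were also lower without overlap (-1.83 and -1.13), and Akap6 and Akap9 higher (0.88 and 0.32), none called. Akap2, Akap7, Akap8l, Akap10 and Akap11 overlapped, from -0.55 (Akap11) to 1.06 (Akap10). Akap2 shares 4114 bases of an exon with Pakap on the same strand, and its reads are uncertain for that reason. Of the 4 adenylyl cyclases, Adcy4 and Adcy9 had 798, 2346, 2062 and 1563 and 766, 947, 947 and 1625 normalised counts in eGFP 1, eGFP 2, mVEGF-C 1 and mVEGF-C 2. Adcy3 and Adcy7 stood at -1.72 and -0.02, and no cyclase was called by limma, edgeR or DESeq2, with 0 at an unadjusted limma p under 0.05.

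Among the G protein alpha subunits, none of 9 was called by limma, edgeR or DESeq2, and 1, Gnai3, had an unadjusted limma p under 0.05. Gnas, which encodes the Gs subunit that stimulates adenylyl cyclase, had 22945 and 17398 normalised counts in the eGFP and 38612 and 18743 in the mVEGF-C libraries. The groups overlapped, and the log2 fold change was 0.43 (95% interval -0.30 to 1.16, limma adjusted p = 0.765). Its locus overlaps the antisense transcript Nespas, which this counting may not separate. Gnai2, the main inhibitory subunit of endothelium, had 4245, 4518, 3508 and 5972 normalised counts, with overlapping groups and a log2 fold change of 0.06 (SE 0.73). Gnai3, a second inhibitory subunit, had 3738 and 4075 against 1380 and 699, tight in the eGFP pair and lower in both mVEGF-C libraries, at -1.99 (SE 0.93, limma adjusted p = 0.344). Gnaq had 5425 and 3679 against 16418 and 5632, where mVEGF-C 1 stood alone and the groups nearly touched (1.11, limma adjusted p = 0.539). Gna11, which like Gnaq activates phospholipase C beta, had 1140, 2622, 6920 and 2118, again with mVEGF-C 1 the highest (1.15, limma adjusted p = 0.702). Per kb, the Gq class took 17.1% and 20.5% of the alpha transcripts in eGFP, 42.04% in mVEGF-C 1 and 24.96% in mVEGF-C 2. The inhibitory class took 36.1% and 43.6% in eGFP, 15.4% in mVEGF-C 1 and 32.4% in mVEGF-C 2. Both shares therefore lay apart between the groups mainly through mVEGF-C 1. Gna13, of the G12 class, had 2438, 998, 3289 and 1497 normalised counts (0.51), and Gna12, Gnai1 and Gnaz stood at -0.26, -0.53 and -0.70.

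Gng7 (chromosome 10, 80948624 to 81014945, minus strand), a gamma subunit best known from striatal neurons, was the 1 called gene of 10 beta and gamma subunits. It had 151 and 250.1 normalised counts in the eGFP and 1.07 and 10.2 in the mVEGF-C libraries, the latter resting on 1 and 11 reads. The gene was thus close to absent from both mVEGF-C libraries and low in the eGFP libraries. Gng7 fell by 5.34 on the log2 scale (SE 1.31, limma adjusted p = 0.00578), and was called by edgeR (0.0356) and DESeq2 (0.00022). It was not called without eGFP 1 (0.235), eGFP 2 (0.763) or mVEGF-C 1 (0.113) or without the variance trend (0.0584), in a range of 0.00022 to 0.763 over the alternatives. In the eGFP libraries it made up 0.765% and 0.656% of the gamma transcripts per kb. Gng11, a gamma subunit known from endothelium, made up 54.1% and 68.7% in the eGFP and 31.1% and 58.4% in the mVEGF-C libraries. Gng11 had 2599, 6361, 1044 and 3563 normalised counts, with overlapping groups (-1.08, limma adjusted p = 0.723). Gnb1 was the leading beta subunit, with 84.9% and 85.8% of the beta transcripts per kb in eGFP and 81.5% and 77.5% in mVEGF-C libraries. Its 9761, 14153, 7690 and 11474 normalised counts overlapped between groups (-0.32, interval -1.37 to 0.72). The other 7, Gnb2, Gnb3, Gnb4, Gng2, Gng5, Gng10 and Gng12, ran from -1.16 (Gnb2) to 2.39 (Gng10) and none was called. Gng10 shares an exon with a same-strand readthrough gene, so its counts are uncertain.

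Phospholipase C beta carries the Gq signal. Plcb4 had 7683, 5073, 9517 and 7472 normalised counts in eGFP 1, eGFP 2, mVEGF-C 1 and mVEGF-C 2 and did not separate the groups (0.43, limma adjusted p = 0.895). Plcb3 had 466 and 1432 against 80.1 and 163, lower in both mVEGF-C libraries (-2.83, SE 1.22), and was called by DESeq2 alone (adjusted p = 0.0207, against 0.273 in limma and 0.276 in edgeR, range over the alternatives 0.0207 to 0.999). The Rgs proteins speed the hydrolysis of GTP by alpha subunits and so end their signal. None of the 10 Rgs genes was called by limma, edgeR or DESeq2, and 2 had an unadjusted limma p under 0.05. These were Rgs9, known from the retina and striatum, with 642 and 2868 against 110.0 and 413 (-2.66, SE 1.16), and Rgs16 with 692 and 319 against 37.4 and 125 (-2.76, SE 1.26), each lower in both mVEGF-C libraries (limma, adjusted p = 0.281 and 0.324). Rgs5, a pericyte marker that also acts on Gi and Gq, had 13040 and 7792 against 7874 and 5955 (-0.56, limma adjusted p = 0.83). Of the 10 mural markers, 5 had a row, Rgs5 included, and their summed normalised counts were 22693 to 28796 in the eGFP and 13248 to 18064 in the mVEGF-C libraries. These sums hold the Rgs5 values themselves. Apart from Rgs5, the log2 fold changes were -2.74 for Notch3, -1.07 for Abcc9, -1.22 for Kcnj8 and, the other way, 0.94 for Pdgfrb, none called. Acta2, Tagln, Myh11, Cspg4 and Des had no row and are not analysed here, and the part of mural cells in the Rgs5 values was not tested. The other 7 Rgs genes lay between -1.35 (Rgs17) and 1.28 (Rgs11). Receptor kinases and arrestins silence active receptors, and none of 6 was called by limma, edgeR or DESeq2, with 0 at an unadjusted limma p under 0.05. Grk2, the widely expressed kinase, had 442 and 1603 against 183 and 318 (-1.80, SE 1.18), and Arrb1 (beta-arrestin 1) had 8894 and 6025 against 6549 and 4617 (-0.41, SE 0.65). Grk1, Grk3, Grk4 and Grk5 stood between 0.19 and 0.74.

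**Figure D3:**
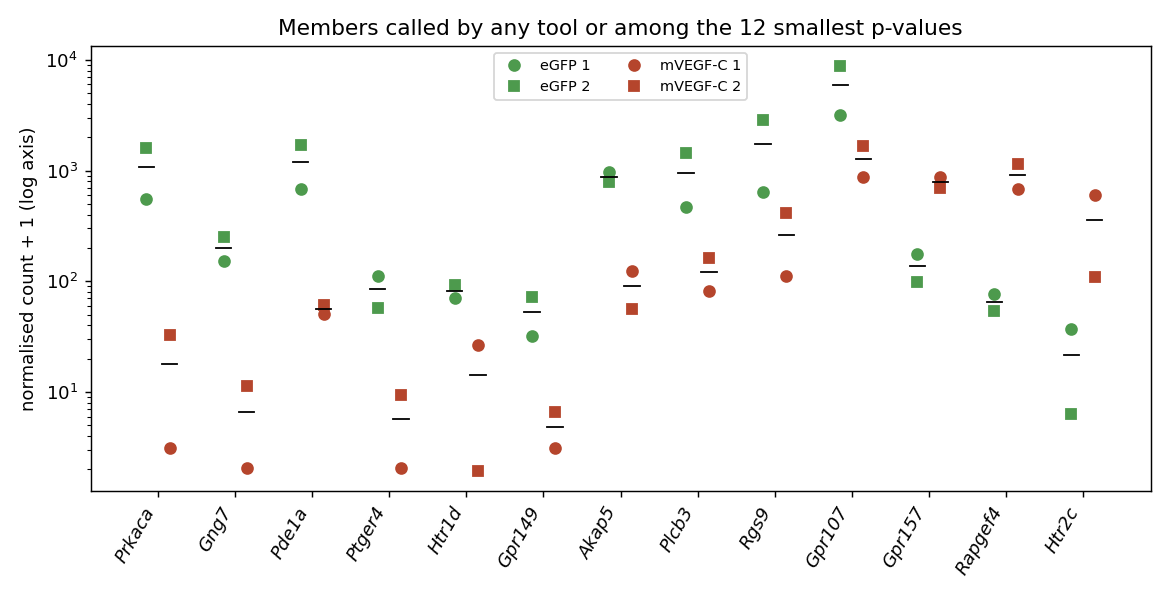
Normalised counts plus 1, on a log axis, of the 13 members called by any tool or among the 12 smallest limma p-values, with 1 point per library and a bar at the mean of the 2 libraries of a group. The eGFP (green) and mVEGF-C (red) points do not overlap for any of the 13, and 10 of the 13 have the mVEGF-C points below. The 13 were picked by calls and p-values from these same values, so their separation follows from the choice. Of all genes tested, 39.2% did not overlap.

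Levels between genes were compared per kb of exon, as normalised count divided by the merged exon length in GENCODE vM21. The median over all genes with a length was 197 per kb. Of the 63 receptor genes tested, 21 lay above it, with a median of 51.7, and of the 74 intracellular genes 41 did, with a median of 230 per kb. Calcrl ranked 128 of 8975 genes by this level, Gng11 122, Gnb1 215, S1pr1 217, F2r 257, Gnas 263, Adgrl4 270, Rgs5 315 and Adgrf5 362. Other receptors of the preset endothelial list lay far lower, with Lpar6 at rank 1145, Ednrb at 1162, F2rl1 at 4234, Aplnr at 5422, Lpar4 at 8213 and Ptger4 at 8726. The endothelial receptor Gpr4 ranked 4763, below the median gene.

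**Figure D4:**
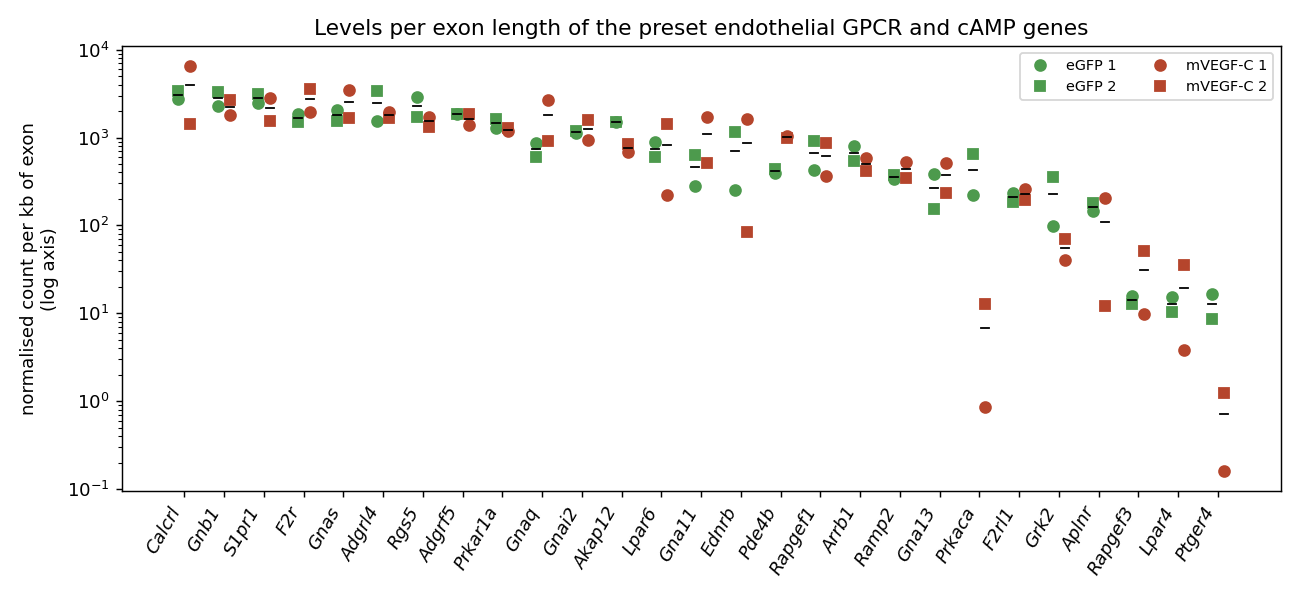
Normalised counts per kb of exon, on a log axis, for the 27 preset endothelial genes with a row, ordered by mean, with 1 point per library and a bar at the mean of each group. The points of both groups mix for most genes, and the groups do not overlap for Prkaca, Ptger4, Grk2, Akap12 and Prkar1a (mVEGF-C lower) or for Pde4b, F2r and Gnaq (mVEGF-C higher). Non-overlap was common in the data, at 39.2% of all genes tested.

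The adrenomedullin receptor was represented by Calcrl, which binds the peptide, and Ramp2, the accessory protein that gives it its preference. Calcrl (chromosome 2, 84330626 to 84425411, minus strand) had 13440 and 16569 normalised counts in the eGFP and 31619 and 7039 in the mVEGF-C libraries. The mVEGF-C libraries flanked the eGFP libraries, and the log2 fold change was 0.00 within an interval of -0.90 to 0.90. Without mVEGF-C 1 it was -1.08 and without mVEGF-C 2 it was 1.08. Ramp2 had 1111, 1253, 1736 and 1134 normalised counts and a log2 fold change of 0.25 (95% interval -1.75 to 2.25, limma adjusted p = 0.972). It shares 637 bases of an exon with Vps25 on the same strand, so its reads are uncertain. Ramp1, Ramp3 and the ligand gene Adm are not analysed here.

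Among receptors for lipid mediators, S1pr1 (chromosome 3, 115710433 to 115715072, minus strand), the Gi-coupled receptor for sphingosine 1-phosphate, had 7548, 9632, 8609 and 4641 normalised counts in eGFP 1, eGFP 2, mVEGF-C 1 and mVEGF-C 2. Its groups overlapped and its log2 fold change was -0.43 (95% interval -1.64 to 0.78, limma adjusted p = 0.895). Ptger4 (chromosome 15, 5206661 to 5244187, minus strand), the Gs-coupled receptor EP4 for prostaglandin E2, had 111 and 56.7 normalised counts in the eGFP and 1.07 and 8.36 in the mVEGF-C libraries, the latter from 1 and 9 reads. Both mVEGF-C libraries were below both eGFP libraries, at a log2 fold change of -4.19 (SE 1.31). It missed the threshold in limma (adjusted p = 0.0597) and edgeR (0.114), passed in DESeq2 (0.0147), and passed in limma with the replicate number as a block (0.0417) and without mVEGF-C 2 (0.0134). Leaving out any of the other 3 libraries gave 0.617 (eGFP 1), 0.846 (eGFP 2) and 0.351 (mVEGF-C 1), and the range over the alternatives was 0.0134 to 0.846. The lysophosphatidic acid receptor Lpar6 had 4807 and 3268 against 1199 and 7681, where the mVEGF-C libraries lay on either side of the eGFP pair (-0.39). Lpar4 had 64.5, 43.8, 16.0 and 149, again on either side (-0.10), and Lpar2 and S1pr4 stood at 0.10 and 0.15. None of the 6 was called by limma or edgeR, 1 was called lower by DESeq2, and 1 had an unadjusted limma p under 0.05, Ptger4 in each case.

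Adhesion receptors, which carry long extracellular domains cut at an autoproteolytic site, had 14 members, and none was called by limma, edgeR or DESeq2, with 0 at an unadjusted limma p under 0.05. Adgrf5, an endothelial and lung epithelial receptor, was even across libraries, with 16535, 16692, 12578 and 16798 normalised counts and a log2 fold change of -0.19 (interval -1.08 to 0.69). Adgrl4 (ELTD1), a receptor of angiogenic endothelium, had 7055, 15544, 8837 and 7596, where eGFP 2 stood alone (-0.35). Adgrg3, Adgrv1 and Adgrd1 were higher in both mVEGF-C libraries than in both eGFP libraries, at 0.90, 1.97 and 2.02. Adgrv1, a very large receptor known from the inner ear, had 618 and 475 against 2028 and 2225. Adgrg1, Adgrg2, Adgrg6 and Adgrl1 were lower without overlap, at -0.20, -2.24, -1.53 and -1.30. Adgrg6 (GPR126), known for its part in Schwann cell myelination, had 1751 and 2000 against 891 and 470.1. The other 5, Adgra2, Adgra3, Adgre5, Adgrg4 and Adgrl2, overlapped, and Adgre5 had 1673, 7244, 5596 and 2196, so that replicates differed more than groups.

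Of the 19 receptors for peptides, amines, purines and proteases, none was called by limma or edgeR, 1 was called higher by DESeq2, and 2 had an unadjusted limma p under 0.05. Htr2c (chromosome X, 146962513 to 147197277, plus strand), a serotonin receptor abundant in choroid plexus epithelium, had 35.8 and 5.34 normalised counts in the eGFP and 600.4 and 109 in the mVEGF-C libraries. The mVEGF-C libraries were higher, yet each pair differed widely within itself, and the log2 fold change was 4.07 (SE 1.31, limma adjusted p = 0.0684, edgeR 0.0957, DESeq2 0.00752). It passed in limma without mVEGF-C 2 (0.0131), within a range of 0.00752 to 0.999 over the alternatives. Of the choroid plexus and ependymal markers, 2 of 5 had a row (Ttr and Folr1). Their sum was 3961 and 19598 in the eGFP and 513 and 831 in the mVEGF-C libraries, nearly all of it Ttr. Ttr, the transport protein transthyretin, went the other way from Htr2c. It had 3947 and 19584 against 512 and 824, with eGFP replicates far apart, and fell by 3.76 on the log2 scale (limma, adjusted p = 0.00306). Foxj1, Kl and Otx2 had no row, and the part of such cells in these values was not tested. Htr1d had 69.0 and 91.9 against 25.6 and 0.93, lower in both mVEGF-C libraries (-3.49, SE 1.31, limma adjusted p = 0.164) and called only without mVEGF-C 1 (0.0138, range over the alternatives 0.0138 to 0.999). Its log2 fold change was -5.39 without mVEGF-C 1 and -1.60 without mVEGF-C 2, and edgeR and DESeq2 gave -2.59 and -2.61 (adjusted p = 0.403 and 0.261).

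The endothelin receptor Ednrb (chromosome 14, 103814625 to 103844402, minus strand) had 1067, 4903, 6986 and 362 normalised counts in eGFP 1, eGFP 2, mVEGF-C 1 and mVEGF-C 2. The replicates of each group differed several-fold and no direction could be read (-0.52, interval -2.36 to 1.32). Ednra had 724, 3399, 504 and 1085 (-1.08). F2r (PAR1), the endothelial thrombin receptor, had 6214 and 5035 against 6573 and 11850, higher without overlap by a small margin (0.66, SE 0.63, limma adjusted p = 0.8). F2rl1 (PAR2) had 635, 512, 706 and 537 (0.11), and F2rl2 (PAR3) stood at 2.07. Aplnr, the apelin receptor, had 533, 666 and 756 in 3 libraries and 44.6 in mVEGF-C 2, which alone set its log2 fold change of -1.68, since without that library it was 0.34. Htr2b, which is known to couple to Gq, was higher without overlap at 573 and 870.1 against 2281 and 2021 (1.60, SE 1.03, limma adjusted p = 0.611). P2ry12, a microglial and platelet receptor for ADP, had 12.5, 31.0, 24.6 and 298, high in mVEGF-C 2 alone. The macrophage markers with a row, Mrc1 and Cx3cr1, 2 of 12, summed to 27773 to 33267 in the eGFP and 23725 to 28840 in the mVEGF-C libraries. Nearly all of this sum was Mrc1. Cx3cr1 had 196 and 387 in the eGFP against 328 and 426 in the mVEGF-C libraries, with overlapping groups. The part of macrophages in the P2ry12 value was not tested. The remaining 9, Adcyap1r1, Adora3, Adra1b, Adra2b, Htr1b, Htr3b, Htr5a, P2ry4 and P2ry13, ran from -1.81 (P2ry13) to 1.60 (Htr5a).

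Of the 22 tested members with Gpr or Gprc names, none was called by limma or edgeR, 1 was called higher by DESeq2, and 5 had an unadjusted limma p under 0.05, 2 higher and 3 lower. Gpr157 (chromosome 4, 150087365 to 150105927, plus strand), known from mouse neural progenitors as a Gq-coupled ciliary receptor, had 174 and 97.3 normalised counts in the eGFP and 879 and 698 in the mVEGF-C libraries. The groups were well apart, at a log2 fold change of 2.58 (SE 1.22, limma adjusted p = 0.349, edgeR 0.385, DESeq2 0.035, range over the alternatives 0.035 to 0.999). Gpr4, a proton-sensing receptor of endothelium that signals through Gs, had 986 and 707 against 87.6 and 259, lower in both mVEGF-C libraries (-2.46, SE 1.21, limma adjusted p = 0.388). Gpr107, which is a Golgi protein rather than a classical receptor, had 3183 and 8779 against 875 and 1658 (-2.13, SE 0.87, limma adjusted p = 0.225). Gpr149, an orphan receptor, had 31.3 and 71.6 against 2.14 and 5.57 (-3.42, SE 1.31, limma adjusted p = 0.179), and Gpr83 had 2.69 and 7.48 against 53.4 and 27.9 (2.83), both on few reads. Gpr182, an atypical chemokine receptor of lymphatic and sinusoidal endothelium, had 6609, 4812, 1719 and 5032 normalised counts. Here mVEGF-C 1 alone was low, the groups overlapped, and the log2 fold change was -0.94 (limma, adjusted p = 0.735). Gprc5b had 738, 2548, 1655 and 6102 (1.21), and Gpr146 had 2485 and 4098 against 2036 and 587 (-1.54). The other 14 lay between -1.88 (Gpr26) and 2.15 (Gpr35).

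**Figure D5:**
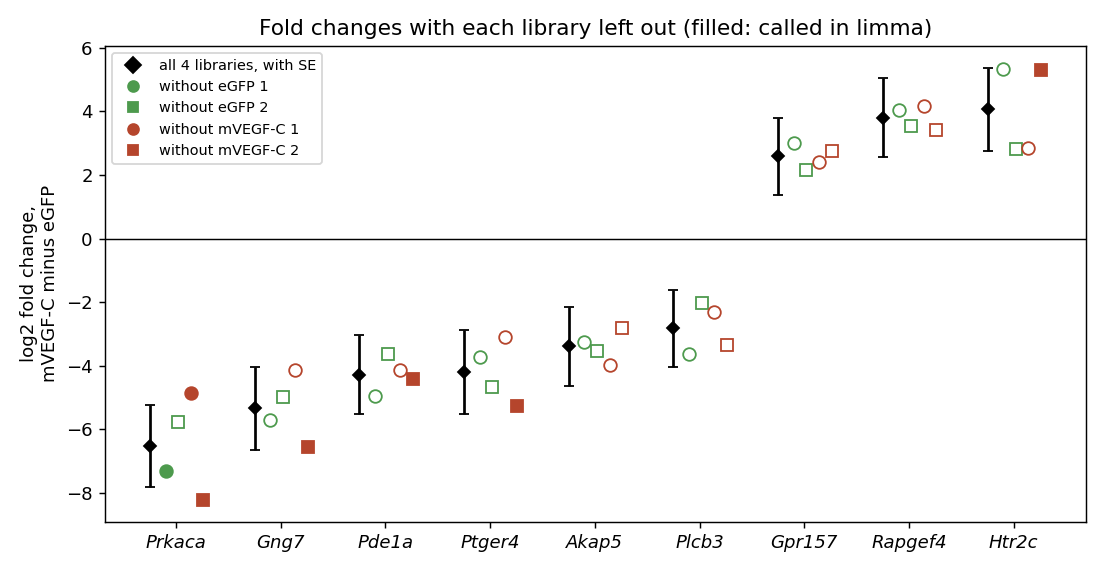
Log2 fold changes, mVEGF-C minus eGFP, of the 9 members called by limma, edgeR or DESeq2, from all 4 libraries (diamonds, bars 1 SE) and with each library left out in turn (filled where limma called the gene). The groups of the 9 do not overlap, so leaving out 1 library could not change a sign. Each of these fits leaves 1 library in a group.

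Lists of further genes of the pathway were read from the same limma fit. Of 16 tested genes for ligand supply, none was called by limma or edgeR, 2 were called lower by DESeq2, and 2 had an unadjusted p under 0.05. These were Ptges, the inducible prostaglandin E2 synthase, with 1340 and 2107 against 147 and 221 (-3.21, limma adjusted p = 0.135), and Mfsd2b, a sphingosine 1-phosphate exporter known from blood cells, with 83.3 and 414 against 14.96 and 28.8 (-3.10, adjusted p = 0.25). Spns2, the endothelial exporter of that lipid, stood at -1.18. Of 11 other receptors, none was called by limma or edgeR, 1 (Npy1r, adjusted p = 0.0144) was called higher by DESeq2 and 3 had an unadjusted p under 0.05: Gabbr1 at 2.02, Npy1r at 2.71 and Ackr3, the scavenger receptor that in mouse lymphatics takes up adrenomedullin, at 2.10. Npy1r had 207 and 109 against 4168 and 234, high in mVEGF-C 1 alone. Ackr3 had 928 and 436 against 3335 and 2225, higher in both mVEGF-C libraries (limma, adjusted p = 0.38). Of 34 downstream effectors, none was called by limma or edgeR, 1 (Gpsm1, a guanine dissociation inhibitor for Gi, at -3.55) was called lower by DESeq2, and 6 had an unadjusted p under 0.05. The smallest p was that of Dgka, a diacylglycerol kinase, at -3.76. Of 22 CREB cofactors and targets, among them Pde10a from the phosphodiesterases above, none was called by limma or edgeR, 1 (the CREB coactivator Crtc1, with 1941 and 2286 against 146 and 468, at -3.003) was called lower by DESeq2, and 3 had an unadjusted p under 0.05. The CREB acetyltransferase Crebbp stood at -2.45 with mVEGF-C 1 alone low. Of 13 genes of receptor endocytosis, none was called by any of the 3 tools, with 0 at an unadjusted p under 0.05, and the 2 with the smallest p were Ap2a2 at -1.57 and Ap2b1 at 0.92. The median log2 fold changes of the 5 lists were -0.42, 0.44, -0.16, -0.09 and -0.43, against -0.02 over all genes.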

How the data were processed

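Per the labels' protocols, PicoPure-extracted RNA was linearly amplified before library preparation. Per the submitters' processing notes, FastQC, Trimmomatic, Salmon and DESeq2 were used on mm10, with no versions given. The authors deposited 1 table of a signal, normalised read counts, for 9114 genes in 4 libraries. Every value was a whole multiple of the library's smallest value above 0 (100% whole within 0.001), so whole reads were recovered. The recovered depth was 25610683 to 28632461 reads, and replicates differed far beyond counting noise (chi-square per degree of freedom of 457 in the eGFP and 517 in the mVEGF-C pair). Whole reads do not distinguish PCR copies from molecules.

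In R 4.3.3, limma 3.58.1 was fitted to log2(normalised count + 1) for 9063 genes with a mean of at least 10, with a variance trend and without a block, two-sided. The added 1 shrinks fold changes of low genes, but limma did not always give the smaller change. The edgeR values were -5.95 for Prkaca, -5.08 for Gng7 and -2.59 for Htr1d, against -6.54, -5.34 and -3.49 in limma. For Gpr149 and Pde1a they were -3.66 and -4.43, against -3.42 and -4.29. With 2 residual degrees of freedom the prior degrees of freedom were infinite, so a gene's own spread did not enter its p-value. edgeR 4.0.16 (quasi-likelihood) and DESeq2 1.42.0 were run on the recovered reads, the former calling 67 genes higher and 79 lower. The scripts were tested on simulated data. Coordinates and exon lengths are from GENCODE vM21 (GRCm38, which is mm10), matched for all 142 members by symbol. The strand setting and gene models used for counting are not given. Exons of 38 members overlap a gene on the other strand.

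The members and lists were chosen with earlier results of these data known. Genes named with all values are those called by any tool, the 12 with the smallest limma p, and 32 preset endothelial genes, of which 27 had a row (38 in all). Other members were named within their roles after their values were seen. The values of 1 member are not reported here.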

Additional observations from a re-analysis of the deposited data

How the results depend on the processing

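The count of members called lower (3 in limma) stayed at 3 with a pseudocount of 0.5 or 5, no filter, a mean of at least 50, robust eBayes, TMM, upper quartile or quantile scaling, and without the 4 or, chosen after seeing the data, 8 misplaced members. It was 2 in edgeR, 6 in DESeq2 and 0 without the variance trend. With single libraries left out it ran from 0 (without eGFP 2) to 4, and was 1 without eGFP 1. The count called higher (0) became 1 with quantile normalization (Htr2c) and 3 in DESeq2, and ran from 0 to 1 with single libraries left out. The cause was not tested. A fit left with 1 library in an arm assumes that it varies like the others.

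The replicate number was shared by 1 library of each group and nothing in the labels says that it marks a pair. The correlation of the deviations of same-numbered libraries over 9114 genes was -0.000774. With the replicate number as a block, 4 members were called lower, Ptger4 being added, and 0 higher.

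Signs changed for members that were not called. Calcrl stood at 0.38 in edgeR and 0.36 in DESeq2, Ednrb at 0.31 and 0.30, Lpar6 at 0.17 and 0.14, and Lpar4 at 0.63 and 0.60, and at 0.11 with quantile normalization. Gnai2 was -0.0101 with upper quartile scaling and -0.0072 with quantile normalization. With single libraries left out the log2 fold changes ran from -0.40 to 0.0159 for Adgrf5, -0.92 to 0.22 for Adgrl4, -3.71 to 0.34 for Aplnr, -1.08 to 1.08 for Calcrl, -2.66 to 1.61 for Ednrb, -0.0863 to 0.31 for F2rl1, -0.14 to 1.15 for Gna13, -0.32 to 0.45 for Gnai2, -0.0922 to 0.95 for Gnas, -1.67 to 1.47 for Lpar4, -1.72 to 0.95 for Lpar6, -0.0567 to 0.56 for Ramp2, -0.79 to 0.46 for Rapgef1, -0.50 to 1.86 for Rapgef3 and -0.88 to 0.0139 for S1pr1.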
